A study of Mus musculus with 6 samples.

Results

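The subject is a set of 38 genes that mark endothelial cells, the cells that line blood and lymph vessels, read in cultured mouse skeletal muscle satellite cells. The genes form a fixed list of symbols, and each symbol was matched to its Ensembl identifier in the deposited count matrix of the whole series; all 38 were among its 21666 genes and all 38 passed the filter on low counts that left 15518 genes for testing. Satellite cells are the stem cells of muscle. The study took them from WT mice and from lncMREF KO mice, which lack a long noncoding RNA linked in the series title to myogenic differentiation and to the Smarca5/p300 complex, and differentiated them for 2 days. There were 3 RNA-seq libraries of each genotype, 6 in all. The labels used here state neither strain, age, the build of the knockout allele nor the way the cells were isolated. They also do not tie replicates to animals or cultures, so a p-value measures the spread between the libraries at hand, and that spread may be technical. The targeted RNA was not analysed here. The comparison asked whether all the endothelial genes were lower in KO libraries by like amounts, as they would be if a single cell type had been lost.

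Endothelial cells are held together by junctions of the cadherin Cdh5 and the adhesion molecule Pecam1. Their growth is driven by vascular endothelial growth factors acting on the receptors Kdr, Flt1 and Flt4, and their quiescence by angiopoietins acting on the receptor Tek and its partner Tie1. Their identity is held by ETS factors such as Erg and Fli1 and by the SoxF factors Sox7, Sox17 and Sox18. Capillaries lie along every muscle fibre, and vessel cells can be carried into a culture of cells released from muscle. Several of the genes are not restricted to vessels: Eng is also made by mesenchymal cells, Cd34 by satellite cells and stromal progenitors, Fli1 and Lyve1 by cells of the blood and macrophage lineages, and Prox1 by muscle cells.

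Library totals in the matrix ran from 17919826 to 28430678 counts. Levels are given as CPM, counts relative to the library size after scaling by the trimmed mean of M values (TMM). Each change is a log2 ratio of KO to WT. Calls rest on edgeR's quasi-likelihood test with Benjamini-Hochberg adjustment over all 15518 genes and a threshold of 0.05. The median change of all genes was 0.02. The 8 myogenic genes that check the labelled cell type were measured in every library but did not move alike. Des, the muscle intermediate filament, stood at 3099 ± 42.6 CPM in WT and 574 ± 15.8 CPM in KO (SD, n = 3 each), while Pax7, which marks uncommitted satellite cells, was higher in KO; the values are given with the other lists.

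Of the 38 endothelial genes, 36 were lower in KO and 2 were not called, Fli1 and Clec14a. In edgeR 0 were higher, also at an unadjusted p under 0.05, and DESeq2 and limma voom likewise called 0 higher. Over all genes tested, 33.0% were called lower and 33.7% higher. By size, 31 of the 38 fell by over 2-fold, 23 by over 4-fold and 8 by over 8-fold, beside 9.38%, 2.95% and 0.677% of all genes. In 36 genes every KO library lay below every WT library, which was so for 34.1% of all genes. The summed level of the 38 genes was 886 CPM in WT replicate 1, 883 in WT replicate 2 and 878 in WT replicate 3, against 325, 320 and 328 in KO replicates 1 to 3. The genotypes did not overlap in this sum, and libraries of a genotype lay close together. In bulk RNA, fewer cells of a type and less RNA per cell cannot be told apart.

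**Figure D1:**
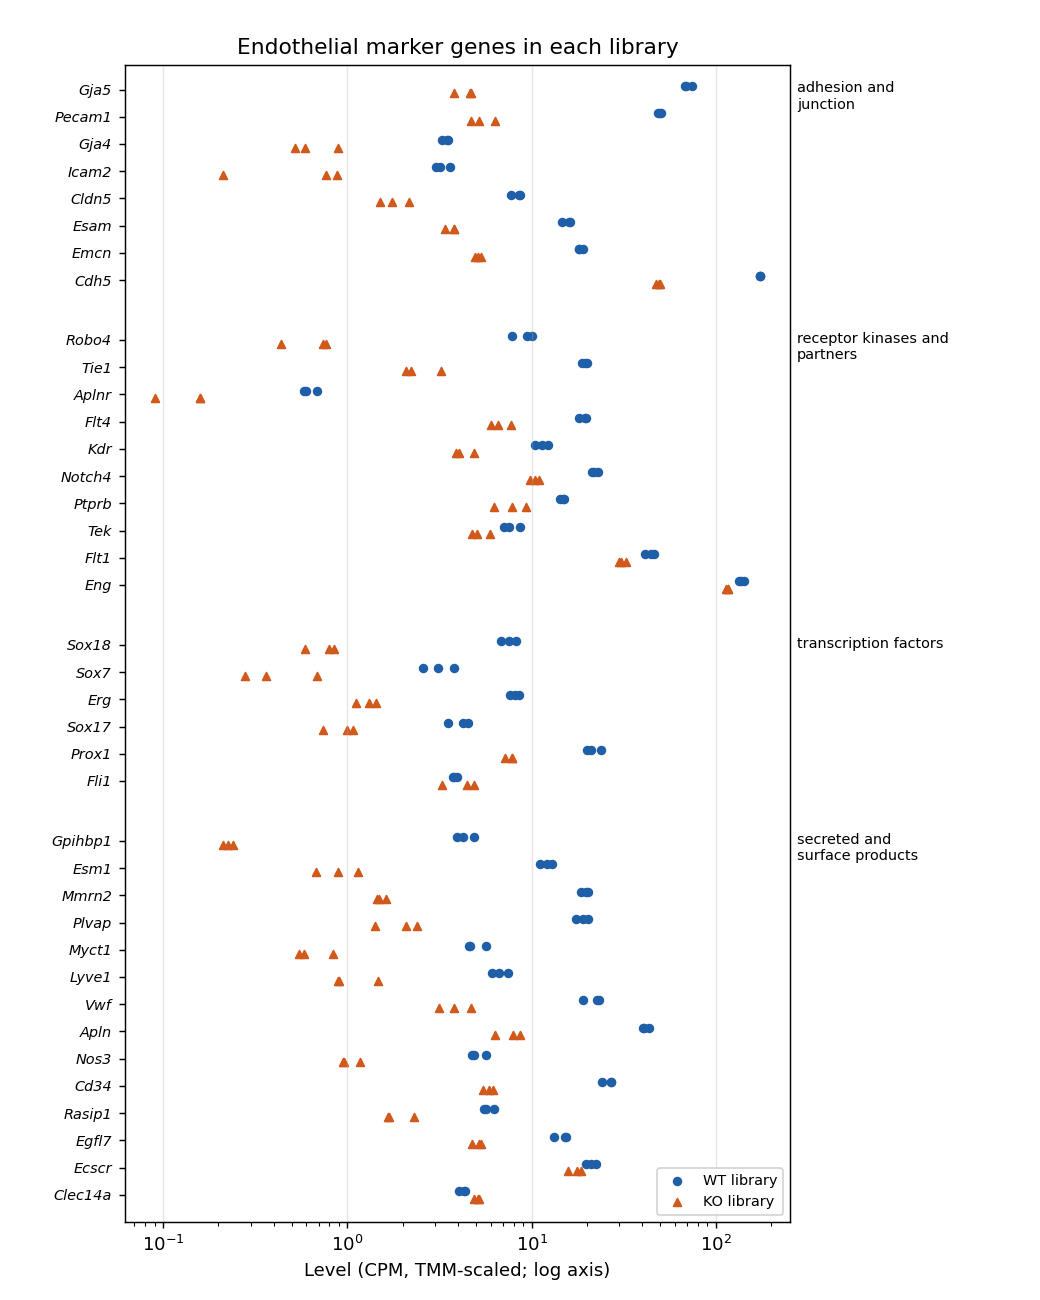
Level of each of the 38 genes in each library, in CPM on a log axis, grouped by role and ordered within a role by the size of the change; circles are WT libraries and triangles KO libraries. In 36 genes all KO points lie to the left of all WT points; in Fli1 they overlap, and in Clec14a they lie to the right.

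The genes did not fall alike. The changes ran from -4.23 for Gpihbp1 to 0.26 for Clec14a, with a median of -2.18, quartiles of -2.90 and -1.50 and an SD over genes of 1.16. The standard error of a single gene's change was 0.13 at the median and ran from 0.04 to 0.51, so the spread between genes was wider than the error of any of them. The SD over all genes tested was 0.89. The 95% interval of 8 genes held the median of the list, that of 15 genes lay wholly below it and that of the other 15 wholly above it. The median comes from the same genes, so an even split around it is built in. Of the 703 pairs of these genes, 501 (71.3%) had 95% intervals that did not overlap. The share for pairs of all genes tested was not computed, so whether 71.3% is particular to this list was not tested. A gene at the median kept 22.1% of its WT level, Gpihbp1 kept 5.35% (95% interval 3.53 to 8.10) and Eng kept 84.3% (79.2 to 89.8). The change did not follow the level. Across the 38 genes it correlated with the log2 WT level per length at -0.18 (Spearman) and -0.08 (Pearson). With log2 exon length it correlated at 0.31 (Spearman) and 0.27 (Pearson). These values are a description over genes that share the same libraries.

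**Figure D2:**
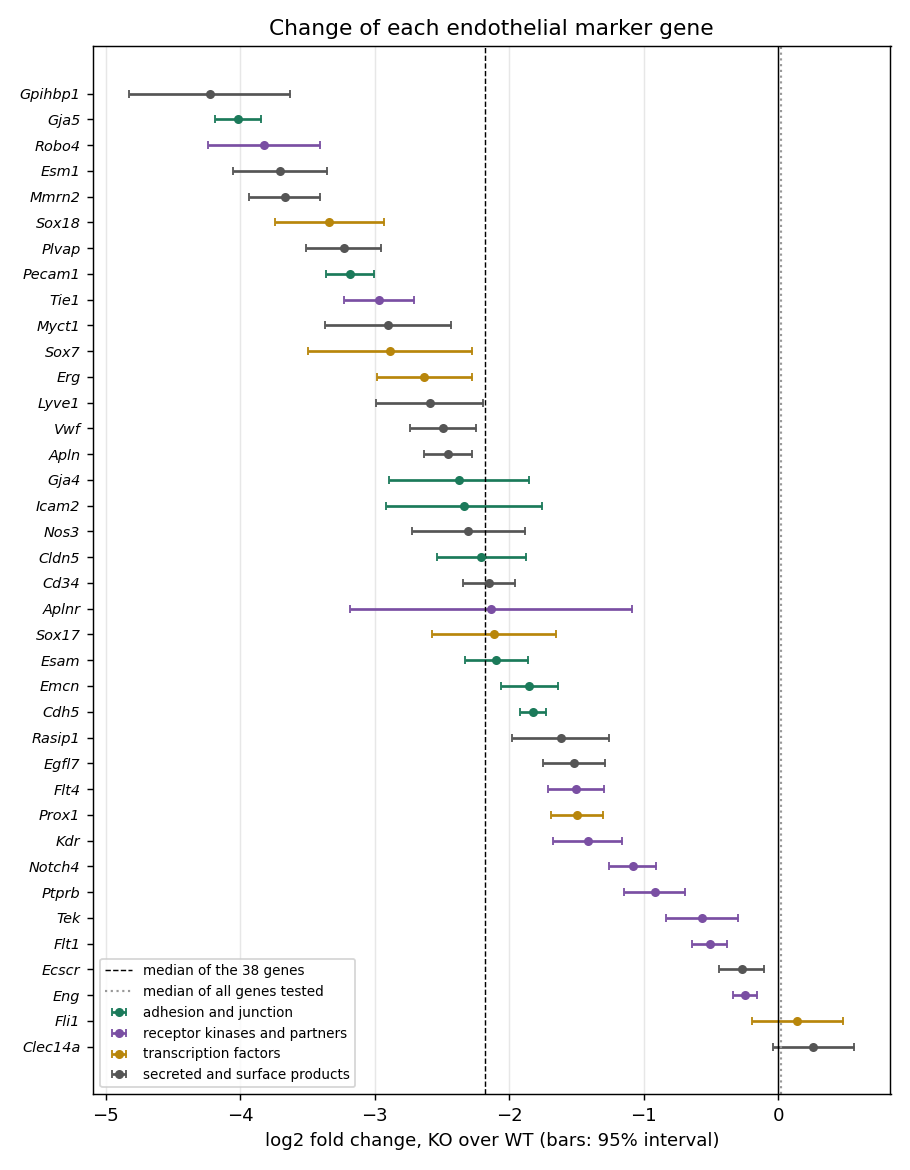
Log2 fold change of each of the 38 genes with its 95% interval, ordered by size and coloured by role; the dashed line is the median of the 38 genes and the dotted line that of all genes tested. The intervals run in a slope from -4.23 to 0.26 and do not gather at the dashed line.

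The promoters of 4 of the genes are given to show genes at both ends of this range beside a motif of ETS factors, the family of Erg and Fli1. They were chosen after the values were seen: Gja5, Robo4 and Tie1 are among the genes that fell most, and Clec14a was not called. Esm1 fell more than Tie1 (-3.70 against -2.97) and its promoter lacks the letters AGGAAG, but it is not shown. The 4 sequences therefore do not stand for a link between motif and change, which was not tested. Each sequence holds 250 bases before and 50 bases after a RefSeq start site in build GRCm38.p6 (the same assembly as mm10), 5′ to 3′ on the strand of the gene. Capitals mark the letters AGGAAG on either strand. The regions are chr3:97032152-97032451 on the plus strand for Gja5, chr9:37401722-37402021 on the plus strand for Robo4, chr4:118489800-118490099 on the minus strand for Tie1 and chr12:58269209-58269508 on the minus strand for Clec14a.
Gja5: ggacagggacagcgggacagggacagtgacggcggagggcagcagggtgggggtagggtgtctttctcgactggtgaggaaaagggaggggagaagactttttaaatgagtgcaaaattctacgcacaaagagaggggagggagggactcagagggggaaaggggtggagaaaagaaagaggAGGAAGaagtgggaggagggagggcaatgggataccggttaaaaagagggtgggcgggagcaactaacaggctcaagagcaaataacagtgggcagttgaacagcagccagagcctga
Robo4: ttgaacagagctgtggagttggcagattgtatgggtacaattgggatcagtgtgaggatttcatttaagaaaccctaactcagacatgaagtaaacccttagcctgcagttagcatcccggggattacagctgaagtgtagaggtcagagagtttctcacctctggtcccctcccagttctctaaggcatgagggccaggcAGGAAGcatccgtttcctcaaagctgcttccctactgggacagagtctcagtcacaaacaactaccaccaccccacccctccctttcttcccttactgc
Tie1: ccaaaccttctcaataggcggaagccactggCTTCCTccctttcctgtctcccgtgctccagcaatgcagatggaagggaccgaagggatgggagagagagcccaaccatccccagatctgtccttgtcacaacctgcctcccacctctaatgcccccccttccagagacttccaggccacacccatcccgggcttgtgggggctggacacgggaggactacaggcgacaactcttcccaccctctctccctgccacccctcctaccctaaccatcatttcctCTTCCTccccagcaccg
Clec14a: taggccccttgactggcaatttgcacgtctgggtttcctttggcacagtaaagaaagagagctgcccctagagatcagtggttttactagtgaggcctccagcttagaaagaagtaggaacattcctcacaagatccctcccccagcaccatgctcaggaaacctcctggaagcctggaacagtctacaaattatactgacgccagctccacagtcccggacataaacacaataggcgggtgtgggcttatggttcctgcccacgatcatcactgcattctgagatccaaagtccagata
Matches began at position -68 in Gja5, -49 in Robo4 and -219 and 34 in Tie1, counted from the start site as 1, and there was none in Clec14a. RefSeq promoters were matched for 21 of the 38 genes, 26 promoters in all, and 14 of these (53.8%) held AGGAAG on either strand, against 35.4% of 32851 promoters of all genes. The genes with a match ranged from Gja5 (-4.02) to Eng (-0.25), and those without from Esm1 (-3.70) to Clec14a. The letters AACAGGAA, a joint FOX and ETS motif that overlaps with the former in AGGAA, were in 2 of the 26 promoters (7.69%), those of Emcn and Egfl7, and in 2.65% of all. These matches are a description of the letters in a 300-base window.

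Among the 8 adhesion and junction genes all fell, from -4.02 to -1.82, with a median of -2.27. The counts of this and the following roles stand beside 33.0% of all genes tested that were called lower. Pecam1 (ENSMUSG00000020717, chromosome 11, 106654217 to 106750628, minus strand), a homophilic adhesion molecule, stood at 50.6, 49.5 and 48.8 CPM in WT and at 4.67, 6.37 and 5.22 in KO. It fell 9.08-fold (log2 change -3.18, SE 0.09, adjusted p 9.02e-27). Cdh5 (ENSMUSG00000031871, chromosome 8, 104101625 to 104144511, plus strand), the cadherin of endothelial junctions, stood at 174, 173 and 173 CPM in WT and at 50.1, 47.4 and 49.3 in KO. It fell 3.54-fold (-1.82, SE 0.05, adjusted p 1.77e-27). So these 2 defining genes were both lower without overlap, but their 95% intervals, -3.36 to -3.01 and -1.92 to -1.73, lay apart. The connexins, which form gap junctions and are used by arterial endothelium, differed as well. Gja5 (ENSMUSG00000057123, chromosome 3, 96904693 to 97077416, plus strand) went from 69.3, 68.4 and 74.5 CPM to 3.80, 4.62 and 4.69, a 16.2-fold fall (-4.02, SE 0.08, adjusted p 2.26e-30). Gja4 went from 3.25, 3.53 and 3.47 CPM to 0.589, 0.518 and 0.896 (-2.38, SE 0.26). The tight junction claudin Cldn5 (-2.21, SE 0.16), the junction adhesion molecule Esam (-2.10, SE 0.12) and the sialomucin Emcn (-1.85, SE 0.10) lay between these and Cdh5. Icam2 (-2.33, SE 0.29) was read from 69 to 81 counts in WT and from 4 to 22 in KO, where replicate 3 was the lowest.

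The 10 receptors and their partners all fell too, with a median of -1.25, and 4 of them, Ptprb, Tek, Flt1 and Eng, fell by under 2-fold. Of the VEGF receptors, Kdr, which carries the main growth signal in blood vessels, went from 11.4, 12.3 and 10.4 CPM to 4.03, 3.90 and 4.90 (-1.42, SE 0.13, adjusted p 4.66e-12). Flt4, the receptor of lymphatic endothelium, went from 19.4, 18.1 and 19.8 to 6.02, 6.61 and 7.69 (-1.50, SE 0.10). Flt1, which binds VEGF as a decoy and is also made as a soluble form, kept more: 41.4, 46.0 and 44.3 CPM in WT against 30.4, 29.8 and 32.4 in KO (-0.51, SE 0.06, adjusted p 1.14e-08). The angiopoietin receptor Tek and its partner Tie1 parted in the same way. Tie1 (ENSMUSG00000033191, chromosome 4, 118471191 to 118490061, minus strand) went from 19.4, 20.1 and 18.7 CPM to 2.08, 2.23 and 3.21, a 7.82-fold fall (-2.97, SE 0.13, adjusted p 6.14e-21). Tek went from 7.08, 8.69 and 7.54 to 5.07, 4.74 and 5.96 (-0.57, SE 0.13, adjusted p 0.000356). The groups did not overlap in either gene, and the intervals of the changes, -3.23 to -2.71 and -0.84 to -0.30, lay far apart. Ptprb, the phosphatase that acts on Tek and Cdh5, fell by 0.92 on the log2 scale (SE 0.11).

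Robo4 (ENSMUSG00000032125, chromosome 9, 37401897 to 37415115, plus strand), a stabiliser of vessels, fell most among the receptors. It stood at 7.88, 10 and 9.40 CPM in WT and at 0.770, 0.438 and 0.738 in KO (-3.82, SE 0.20, adjusted p 3.67e-18). Eng (ENSMUSG00000026814, chromosome 2, 32646595 to 32682669, plus strand), a coreceptor for TGF-beta and BMP ligands, fell least, from 142, 137 and 133 CPM to 114, 116 and 117 (-0.25, SE 0.04, adjusted p 1.05e-05). Its call was lost when counts were scaled by library size alone (-0.08, adjusted p 0.129; adjusted p 1.37e-07 to 0.129 over 12 alternatives). Notch4, a Notch receptor of endothelium, went from 22.9, 21.4 and 21.7 to 11, 9.79 and 10.4 CPM (-1.08, SE 0.09). Aplnr, the receptor of the peptide Apln, was near the limit of detection at 13 to 16 counts in WT and 2 to 4 in KO (-2.14, SE 0.51, adjusted p 0.000466).

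Of the 6 transcription factors 5 fell and Fli1 was not called (median -2.37). Erg went from 7.61, 8.53 and 8.10 CPM to 1.31, 1.43 and 1.11 (-2.63, SE 0.17, adjusted p 1.37e-15). Fli1 (ENSMUSG00000016087, chromosome 9, 32422204 to 32542861, minus strand), the other ETS factor, stood at 3.92, 3.74 and 3.81 CPM in WT and at 4.85, 4.46 and 3.27 in KO (0.14, SE 0.17, adjusted p 0.463, 95% interval -0.20 to 0.48). Its groups overlapped, because KO replicate 3 lay below and the other KO libraries above all WT libraries. The SoxF genes all fell: Sox18 by 3.34 (SE 0.20), Sox7 by 2.89 (SE 0.30) and Sox17 by 2.11 on the log2 scale (SE 0.23). Sox17 shares 16.9% of its exonic bases with an antisense gene. Prox1, the master factor of lymphatic endothelium, went from 21.1, 23.8 and 20.1 CPM to 7.88, 7.80 and 7.22 (-1.49, SE 0.10). It fell by an amount like that of the lymphatic receptor Flt4 and less than Lyve1, the hyaluronan receptor of lymphatic vessels (-2.59, SE 0.20).

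Of the 14 secreted and surface products 13 fell and Clec14a was not called (median -2.48). The largest fall of the 38 genes was that of Gpihbp1 (ENSMUSG00000022579, chromosome 15, 75596628 to 75599481, plus strand), which carries lipoprotein lipase across capillary endothelium. It went from 4.85, 4.26 and 3.92 CPM to 0.226, 0.239 and 0.211, read from 81 to 109 counts in WT and 4 to 6 in KO (-4.23, SE 0.29, adjusted p 6.62e-15). Esm1, a secreted proteoglycan of sprouting tip cells, went from 11.1, 12.1 and 12.9 CPM to 0.679, 1.15 and 0.896 (-3.70, SE 0.17). Apln, a peptide also made by tip cells, fell less, from 40.8, 40.4 and 43.2 to 7.93, 6.33 and 8.64 (-2.46, SE 0.09). Vwf, the clotting factor stored in endothelial granules, went from 22.6, 23.3 and 19.1 CPM to 3.80, 3.15 and 4.69 (-2.49, SE 0.12). Plvap, which builds the diaphragms of fenestrated vessels, fell by 3.23 (SE 0.14) and Cd34 by 2.15 on the log2 scale (SE 0.10). The others that fell were Myct1 (-2.90), Lyve1, the nitric oxide synthase Nos3 (-2.30), the junction regulator Rasip1 (-1.62) and the secreted factor Egfl7 (-1.52). Nos3 shares 32.3% of its exonic bases with genes on the opposite strand, whose reads cannot be told apart where strand was not used in counting. Rasip1 and Egfl7 share 42.9% and 11.2% with other genes, some of them on the same strand, so that strand alone would not separate those reads.

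Mmrn2 and Clec14a, which bind each other at the endothelial surface, lay at opposite ends. Mmrn2, a matrix glycoprotein, went from 19.8, 20.2 and 18.6 CPM to 1.45, 1.63 and 1.48, a 12.7-fold fall (-3.67, SE 0.13, adjusted p 2.09e-23). Clec14a (ENSMUSG00000045930, chromosome 12, 58264720 to 58269290, minus strand), a C-type lectin, stood at 4.36, 4.32 and 4.03 CPM in WT and at 5.12, 4.90 and 5.22 in KO. All 3 KO libraries lay above all 3 WT libraries, but the gene was not called (0.26, SE 0.15, adjusted p 0.121). It was called higher when counts were scaled by library size alone (0.43, adjusted p 0.0105; adjusted p 0.0105 to 0.29 over 12 alternatives). Ecscr, a surface protein that regulates endothelial migration, went from 22.3, 19.7 and 21 CPM to 17.7, 18.6 and 15.7 (-0.27, SE 0.08, adjusted p 0.00429), and its call was lost under the same scaling (-0.10, adjusted p 0.273; adjusted p 0.00128 to 0.273 over 12 alternatives). That scaling moved the median of all genes from 0.02 to 0.19.

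The order of the genes by level therefore differed between genotypes. Per kilobase of exon (RPKM), Cdh5 was the highest in WT at 41.2 ± 0.12, followed by Eng at 33.9 ± 1.08, Apln at 13.2 ± 0.48, Gja5 at 12.3 ± 0.57, Ecscr at 12 ± 0.74 and Plvap at 9.50 ± 0.73 (SD, n = 3). The SD ranges of Apln and Gja5 and those of Gja5 and Ecscr overlapped. In KO, Eng was the highest at 28.6 ± 0.39, above Cdh5 at 11.6 ± 0.33 and Ecscr at 9.90 ± 0.85, and then came Apln at 2.42 ± 0.38 and Flt1 at 2.29 ± 0.10. The last pair did not differ beyond their spread. Gja5 had dropped to 0.76 ± 0.09 RPKM. Eng, Cdh5, Flt1 and Ecscr, grouped after their values were seen, held between 42.3% and 42.8% of the summed CPM of the 38 genes in WT and between 65.3% and 66.3% in KO.

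A ratio of genes within a library does not depend on how libraries are scaled, so each gene was also set against Cdh5. Per 100 CPM of Cdh5, Pecam1 stood at 29.1, 28.7 and 28.2 in WT and at 9.30, 13.4 and 10.6 in KO. Eng went the other way, from 81.7, 79.1 and 76.9 to 227, 245 and 237. Emcn kept its ratio, at 10.4, 10.5 and 11 in WT and 10.6, 10.4 and 10.4 in KO. Of the 37 other genes, 20 had a lower ratio in every KO library than in every WT library, 12 had a higher ratio in every KO library, and the groups overlapped in 5: Emcn, Sox17, Icam2, Aplnr and Rasip1. Over all genes tested the ratio did not overlap in 96.0%, lower in 2.39% and higher in 93.7%; Cdh5 itself was lower in KO, which moves every ratio up. With 3 libraries against 3, an exact two-sided permutation test cannot give a p below 0.1, so these ratios are a description. With Pecam1 as the reference, 26 of 37 ratios were higher without overlap, against 98.5% of all other genes tested, and 4 were lower, against 0.213% (Mmrn2, Gja5, Esm1 and Gpihbp1); the other 7 overlapped (Tie1, Robo4, Plvap, Sox7, Sox18, Icam2 and Myct1).

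**Figure D3:**
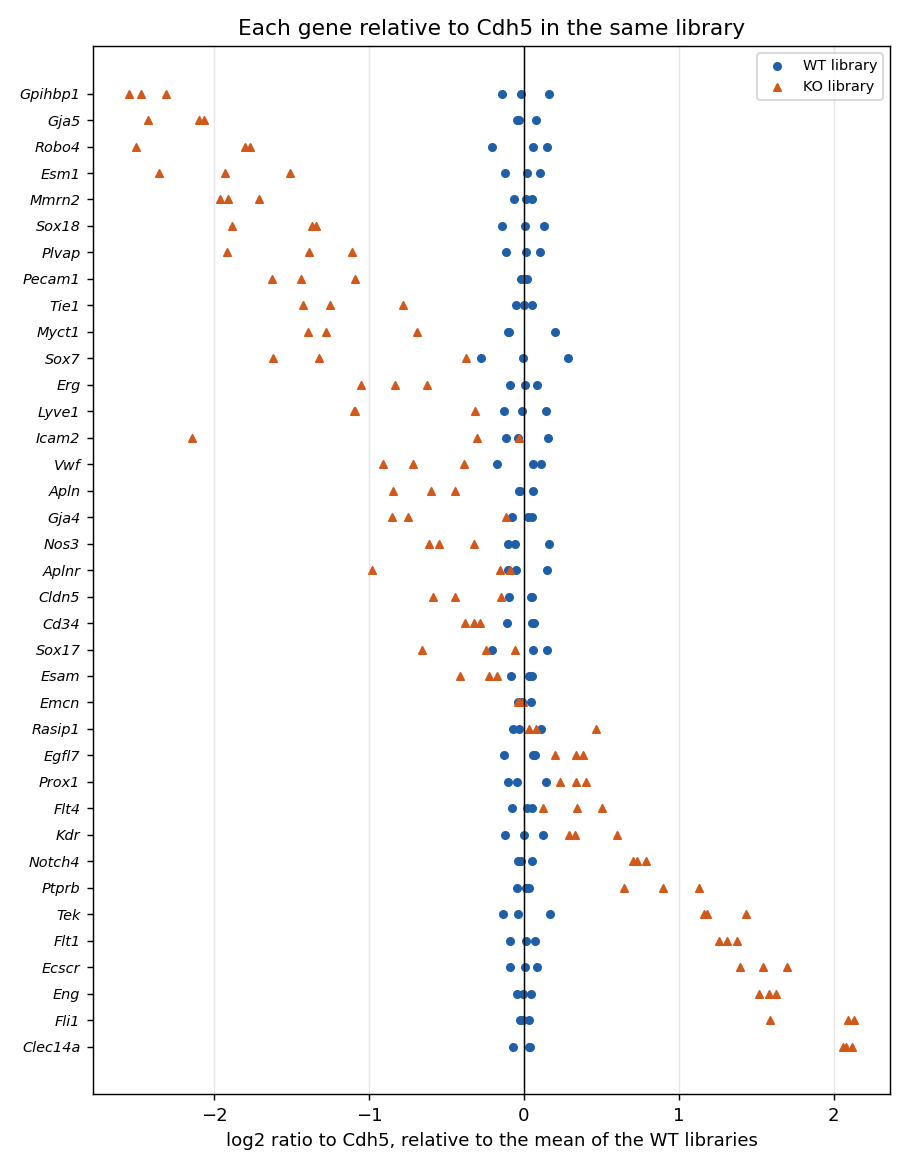
Log2 ratio of each gene to Cdh5 in the same library, less the mean of the WT libraries, for 37 genes ordered by the difference; circles are WT libraries and triangles KO libraries. KO points lie left of the WT points in 20 genes, right of them in 12 and among them in 5.

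A second list of 30 genes known from endothelium, some of them shared with other cells, was read in the same way. Of its 25 tested genes 16 were lower, 5 were higher and 4 were not called, with a median of -0.55, beside 33.0% lower and 33.7% higher of all genes. By size, 11 fell by over 2-fold, 6 by over 4-fold and 2 by over 8-fold, beside 9.38%, 2.95% and 0.677% of all genes. The summed level of this list changed little, from 604.5 to 623.5 CPM in WT to 537.1 to 569.9 CPM in KO. The genes with the smallest p-values were the sphingosine phosphate receptor S1pr1 (-1.80, SE 0.07), the adhesion receptor Adgrl4, which fell from 12.5 ± 0.88 to 0.895 ± 0.229 CPM (-3.83, SE 0.17), and the Notch ligand Dll4, which fell from 12 ± 1.0 to 0.999 ± 0.419 CPM (-3.54, SE 0.18). Those that rose were the ETS factor Ets1 (0.76, SE 0.05), Rgcc (1.0, SE 0.10), Sema3g (0.84, SE 0.12), the venous receptor Ephb4 (0.36, SE 0.05) and Tspan18 (0.34, SE 0.14, adjusted p 0.0308).

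Vascular ligands and coreceptors, not all of them partners of the receptors above, were read as well. Of 23 tested, 17 were lower, 4 were higher and 2 were not called, beside 33.0% lower and 33.7% higher of all genes. Many of the falls were small: 6 genes fell by over 2-fold, beside 9.38% of all genes. The list median of -0.35 lay near the lower quartile of all genes tested (-0.36). The smallest p-values were those of the Notch ligand Jag2, from 90.1 ± 3.99 to 14.3 ± 0.28 CPM (-2.66, SE 0.06), the angiopoietin Angpt2, a ligand of Tek, from 68.8 ± 1.54 to 13.2 ± 0.61 (-2.38, SE 0.07), and Fgf2 (-1.68, SE 0.06; 13.2% of its exonic bases are shared). Bmp6 (0.94), Vegfb (0.41), Plxnd1 (0.42) and Jag1 (0.29) rose. Vegfa, the main ligand of Kdr, was the most abundant of the list by CPM and fell little, from 305 ± 1.58 to 266 ± 18.4 (-0.20, SE 0.04, adjusted p 0.000168), and Vegfc, the ligand of Flt4, fell by 1.05 on the log2 scale (SE 0.08); both were named after their values were seen.

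Markers of other cells moved in the same libraries, where 33.0% of all genes tested were called lower and 33.7% higher. Of 13 tested macrophage and leukocyte genes 12 rose and 1 was not called (median 1.98), and their summed level was 114 to 125 CPM in WT and 376.6 to 387.5 CPM in KO. The smallest p-values were those of the lysozyme gene Lyz2 (1.53, SE 0.04), the protease gene Ctss (2.44, SE 0.10) and the lysosomal marker Cd68 (2.25, SE 0.12). None of these tested genes was at 0 in any library. Ptprc, which marks all leukocytes and was named after its value was seen, went from 14 to 21 counts in WT to 44 to 80 in KO. Fli1 and Lyve1, which macrophage-lineage cells can also make, parted in the same libraries. Fli1 was not called (0.14, SE 0.17) and Lyve1 fell (-2.59, SE 0.20). A link of either gene to the macrophage markers was not tested. Schwann cell genes rose in 4 of 5 (sum 199 to 206 against 715 to 720 CPM), among them Ngfr (2.00, SE 0.04), Sox10 (1.96, SE 0.05) and S100b (2.12, SE 0.15). Of 8 pericyte and smooth muscle genes, which mark the cells around vessels, 4 fell, 2 rose and 2 were not called (median -0.17). Their sum was 3620 to 3769 CPM in WT and 3214 to 3309 CPM in KO. Pdgfrb, the pericyte receptor, was 794 CPM in WT and 871 CPM in KO (0.13, SE 0.04), and the receptor Notch3 also rose (0.34, SE 0.05). The channel subunit Abcc9 (-2.70, SE 0.07), the signalling regulator Rgs5 (-0.96, SE 0.05) and smooth muscle actin Acta2 (-0.29, SE 0.04) fell. Of 8 myogenic genes 6 fell, 1 rose and 1 was not called, with a median of -1.79 and an SD over genes of 1.11; the sum was 15870 to 16480 CPM in WT and 3498 to 3765 CPM in KO. The smallest p-values were those of Des (-2.43, SE 0.04), the fusion factor Mymk (-2.19, SE 0.04) and skeletal actin Acta1 (-1.89, SE 0.04). Pax7 rose, from 10.4 ± 0.78 to 15.1 ± 0.75 CPM (0.53, SE 0.10, adjusted p 1.12e-05), and Myf5, a myogenic factor of satellite cells and myoblasts, was not called (-0.15, SE 0.14, adjusted p 0.346). Of 5 fibro-adipogenic genes 3 fell, Dcn (-0.59), Ly6a (-0.45) and Dpt (-0.42), and 2 rose, Pdgfra (0.38) and Col1a1 (0.17). Of the platelet and red cell list 2 of 6 genes were tested, Itga2b (-0.53) and Pf4 (1.39), and the other 4 were not analysed here. The part of these cells in the levels of the 38 genes was not tested.

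**Figure D4:**
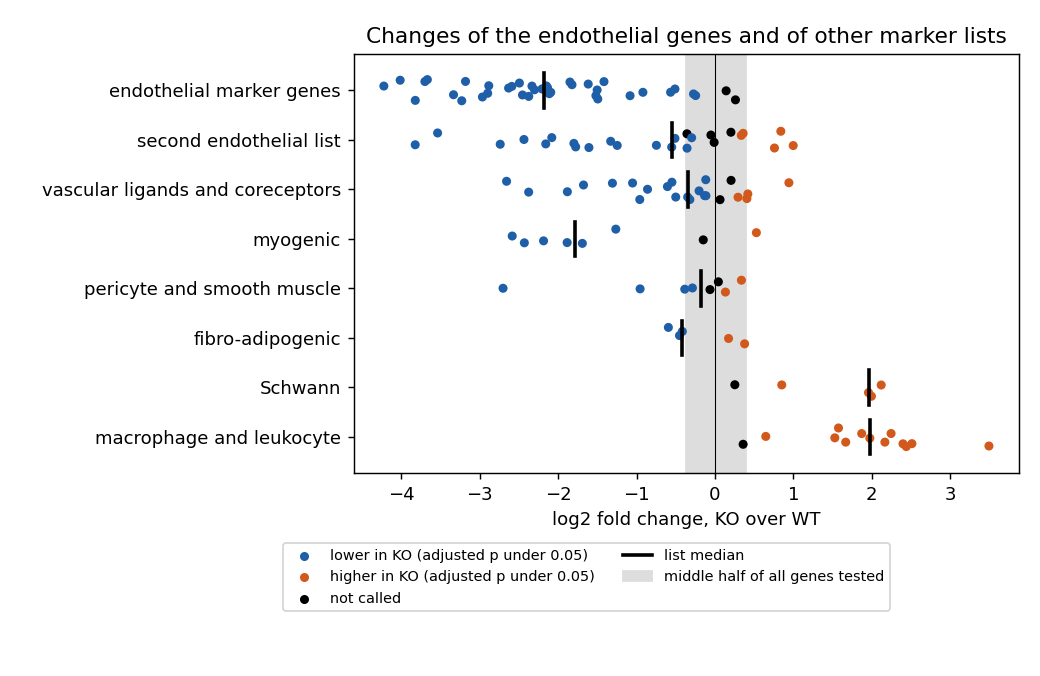
Log2 fold change of each tested gene of the endothelial list and of 7 other lists; blue points were lower and orange points higher in KO, black points were not called, thick bars are list medians and the grey band holds the middle 50% of all genes tested. The endothelial genes spread from -4.23 to 0.26 with a median of -2.18, and the macrophage and Schwann cell genes lie mostly near 2.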

How the data were processed

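For each Ensembl gene the authors deposited raw counts, whole numbers with no normalisation, as a matrix of the whole series and as a table per library. The submitters' processing notes name mm10, featureCounts 2.0.1 and HISAT2 2.2.1; no source used here states the annotation, the counting options or whether strand was used. The matrix was used. The per-library tables were not, because they differ from it gene by gene: 18 of the 38 genes had no count there in any library, and only 2 had a mean within 0.8 to 1.25 times that of the matrix. The disagreement was not particular to these genes. Of 9941 genes with a matrix mean of at least 200 counts, 5.84% lay within that band, and their log2 means correlated at 0.104 (Pearson). Which of the 2 deposits is right was not tested, so all values here rest on the matrix. Symbols, 1-based mm10 positions and exon lengths come from GENCODE M21, which matched 21632 of 21666 genes; shared exonic bases were found with bedtools 2.31.1.

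Genes were kept by filterByExpr (minimum count 10, minimum total 15), scaled by TMM and compared by edgeR 4.0.16 (R 4.3.3) with a robust quasi-likelihood fit and genotype as the only term. An SE is the change divided by the square root of F. The fitting script was run on simulated counts in which few genes changed. Most genes were called in these data, so that run does not bear on the scaling here. Within-group pairs of libraries differed by a mean chi-square per gene of 3.18 to 5.11, above the 1 of sampling noise, so none was counted as a second reading of the same library. These values cannot tell separate animals or cultures from separate preparations of the same culture. Matrix totals of 17919826 to 28430678 counts set the precision, and genes read from under 100 counts have the widest intervals. All 38 genes were reported by role; genes of other lists were named by their 3 smallest p-values or for going against their list, except Ptprc, Vegfa, Vegfc, Myf5 and Dpt, which were named after their values were seen. The genes and lists were chosen with earlier results of these data known. DESeq2 1.42.0, limma 3.58.1 (voom), other scalings, no filter, a replicate block and leaving out each library were tried.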

Additional observations from a re-analysis of the deposited data

How the results depend on the processing

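Over 12 alternatives, 35 of the 38 genes kept their direction and their side of the threshold in each: other scaling factors, no low-count filter, DESeq2, limma voom, a replicate block and leaving out each of the 6 libraries. The exceptions, Eng, Ecscr and Clec14a, came with library size as the only scaling. There 34 genes were called lower in place of 36, 1 was called higher in place of 0, the median change of the 38 was -2.01 in place of -2.18, and 66.1% of all calls were higher in place of 50.5%. The other 11 alternatives called 36 lower and 0 higher. Leaving out a library moved the median of the 38 between -2.25 and -2.18. The SD over the 38 genes was 1.13 to 1.19 over all 12. No pairing by replicate number was visible. Deviations of same-numbered libraries from their group means correlated at -0.005, -0.019 and -0.012. These correlations cannot show whether same-numbered libraries were handled together. With the replicate block 36 genes were called lower and 10209 of all genes were called, against 10353 without it. The number of genes with a ratio to Cdh5 that did not overlap between genotypes was 32 of 37, beside 96.0% of all genes tested. It was 32 to 35 when a library was left out. Leaving out a library can only keep or raise this count, so that range says nothing about its stability. Depth limits Aplnr, Gpihbp1, Icam2, Robo4, Myct1, Gja4, Nos3, Esm1 and the SoxF genes, with fewer than 30 counts in each KO library.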
